A study of Drosophila melanogaster with 31 samples.

Results

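The comparison described here set wing imaginal discs carrying warts (wts) mutant clones, taken at day 9, against discs with control clones taken at day 5, across all genes. It rests on 6 of the 18 RNA-seq libraries of the series, 3 a group, and 3 further libraries of wts discs at day 5 were used to tell which changes were already there before day 9. The labels give every larva a ubxflp transgene, a source of FLP recombinase under Ubx control, in a y w background, and an FRT82B chromosome arm with the M(3) Minute mutation and the ubiGFP marker. The second FRT82B arm carried the wts149 allele in the wts groups and no further mutation in the control, so control discs too were mosaics of clones and slow-growing Minute cells. Each library was made from hand-dissected discs of 12 to 35 3rd instar larvae raised at 25 degrees. The labels number the pools but do not say whether each came from its own vials of larvae. Every p-value here stands for the spread among pools alone, estimated over all 18 RNA-seq libraries, other genotypes included. There was no control at day 9, and the age and the genotype of the day 9 discs cannot be told apart in the comparison with the control. The size of the discs was not among the data analysed here.

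Warts is the kinase at the end of the Hippo pathway. It phosphorylates the co-activator Yorkie and keeps it out of the nucleus, and without Warts, Yorkie works with the DNA-binding protein Scalloped to switch on genes for growth and survival, so that wts mutant discs are known for massive overgrowth. Overgrown or damaged discs are also known to secrete Ilp8, a relaxin-like peptide that delays the ecdysone pulses which start metamorphosis, and larvae that bear them stay in the 3rd instar for longer.

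Library totals ran from 14201662 to 26217144 counts over the 18 libraries, and 9004 of 17373 genes in the table passed the filter on low counts. Levels are given as CPM, the counts relative to a common library size, and differences as log2 fold changes with their standard error from 1 edgeR fit over all 18 libraries. A gene is called at a Benjamini-Hochberg adjusted p under 0.05. The 14 wing disc markers, nub and ap among them, summed to between 4131 and 4610 CPM at day 9, between 4121 and 4310 CPM in wts discs at day 5 and between 4062 and 4212 CPM in the control. Markers of the labelled tissue were thus present at a like level in every library. The roX RNAs, which mark male tissue, and msl-2 summed to between 529 and 759 CPM, between 655 and 796 CPM and between 269 and 671 CPM in the same order of groups. A fit with the roX level as a covariate called 2167 genes at day 9 where the fit without it called 2569. RNA of salivary glands stood out in 1 library: the 12 salivary gland markers summed to 6853 CPM in control replicate 3, to 11.3 and 286 CPM in control replicates 1 and 2, and to no more than 6.2 CPM in the wts libraries.

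The mutated gene itself was measured first. wts (chromosome 3R, 30789625 to 30806619, Release 6) stood at 273, 258 and 278 CPM in wts day 9 libraries, 214, 210.2 and 185 CPM in wts day 5 libraries and 99.3, 106 and 94.96 CPM in control libraries. The 3 groups did not overlap, and the gene was higher, not lower, in discs that carry its mutation. The log2 fold change over the control was 1.43 ± 0.08 at day 9 and 1.02 ± 0.08 at day 5 (adjusted p = 3.26e-08 and 1.12e-06). Between the 2 ages it was 0.41 ± 0.08 (adjusted p = 0.0101), a call lost without wts day 5 replicate 3. Counts of wts therefore do not show how much of a disc was mutant, and the nature of the allele is not given in the labels.

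Between day 9 wts discs and the day 5 control, 2569 of 9004 genes were called, which is 28.5% of them, 1332 higher (14.8%) and 1237 lower (13.7%). The day 9 counts for gene lists given below are to be read beside these shares. At least a 2-fold change was reached by 308 of the genes called higher (3.42%) and 387 of those called lower (4.3%). With scaling by total counts in place of TMM, edgeR's trimmed mean of M-values, the split was 1098 higher and 1703 lower (39.2% higher in place of 51.8%), and the median log2 fold change of all genes was -0.07 in place of -0.02. Without wts day 9 replicate 2 the count was 1701, and without each of the other 8 libraries it lay between 1905 and 2536.

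Of the 1332 genes higher at day 9, 662 (49.7%) were already called higher in wts discs at day 5, which is 7.35% of all genes tested. Their median log2 fold change over the control was 0.66 at day 9 and 0.59 at day 5, and 620 of them showed no call between the 2 ages. A further 158 (11.9%, and 1.75% of all genes) had no call at day 5 and were also called higher in day 9 than in day 5 wts discs. For these the median stood at 0.55 at day 9 and 0.01 at day 5. For 504 (37.8%) the day 9 call had no counterpart at day 5, but day 9 and day 5 did not differ by the test either, so the time of the change was not resolved. Among the 1237 lower genes, 401 (32.4%, and 4.45% of all genes) were already lower at day 5. A set of 134 (10.8%, and 1.49%) was lower than in both the control and the day 5 wts discs without a call at day 5, and 701 (56.7%) had a timing that was not resolved. A further 8 higher genes and 1 lower gene had the opposite call at day 5. Both comparisons share the control libraries, so these shares describe the lists and test nothing. Without wts day 5 replicate 3 the genes already called numbered 631 in all in place of 1063, and those called later 74 in place of 292. The later calls were also fewer without wts day 9 replicates 1, 2 and 3 (148, 121 and 116) and without wts day 5 replicate 2 (102).

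**Figure D1:**
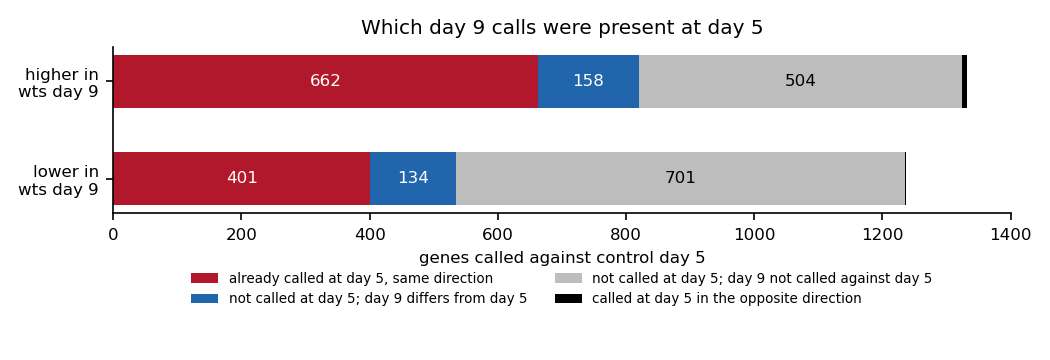
Genes called in wts day 9 against control day 5 discs, split by their state in wts discs at day 5; bars are gene counts. In red are the 662 higher and 401 lower genes already called at day 5, in blue the 158 and 134 without a call at day 5 that also differed between day 9 and day 5 wts discs, and in grey the 504 and 701 whose timing was not resolved.

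In the comparison of wts discs at day 5 with the control, 1635 genes were called (18.2%), 900 higher (10%) and 735 lower (8.16%). Of these, 237 of the higher and 326 of the lower genes had no call at day 9. The day 5 count was 813 without wts day 5 replicate 3, 1075 without wts day 5 replicate 1 and 1058 without control replicate 1. The direct comparison of day 9 with day 5 wts discs called 620 genes (6.89%), 377 higher (4.19%) and 243 lower (2.7%), and it was the one most open to single libraries. The count was 313, 290 and 224 without wts day 9 replicates 1, 2 and 3, and 188 and 118 without wts day 5 replicates 2 and 3. Of the 54 genes named by rule that it called, 42 lost the call without at least 1 library. Those that kept it without each library in turn are said below to have held. Counts for gene lists at day 5 and between ages are to be read beside the shares of all genes given here.

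Many of the listed Yorkie and Scalloped targets were raised at both ages. The list was chosen with earlier results of these data known. sav, wts, Rbf and Rae1 were taken out after values were seen, so the counts describe the list and test nothing. Of 19 tested target genes, 12 were called higher at day 9 and 1 lower, with a median log2 fold change of 0.54 where that of all genes was -0.02, and 10 of the 12 were already called higher at day 5. The count was 11 or 12 whichever library was left out. kibra and expanded (ex), upstream Hippo proteins that are themselves Yorkie targets, were among the genes called higher at both ages. kibra stood at 319.5, 345 and 342 CPM in wts day 9 libraries, 287, 273 and 276 CPM in wts day 5 libraries and 90.0, 90.8 and 82.4 CPM in control libraries, with no overlap between wts and control libraries. Its log2 fold change was 1.94 ± 0.11 at day 9 and 1.67 ± 0.11 at day 5 (adjusted p = 3.26e-08 and 2.46e-07). ex reached 2519, 2783 and 2659 CPM in wts day 9 libraries, 2381, 2423 and 2076 CPM in wts day 5 libraries and 781, 917 and 845 CPM in control libraries, again apart from the control (1.65 ± 0.10 and 1.44 ± 0.10, adjusted p = 4.08e-08 and 2.77e-07).

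Ilp8 was the target with the highest fold change. Its levels were 75.8, 56.3 and 56.6 CPM in wts day 9 libraries, 51.7, 45.5 and 49.9 CPM in wts day 5 libraries and 0.28, 1.86 and 0.318 CPM in control libraries, so that every wts library lay far above every control library. The log2 fold change was 6.20 ± 0.49 at day 9 (adjusted p = 6.15e-07) and 5.84 ± 0.49 at day 5 (adjusted p = 1.47e-06). Between the 2 ages it was 0.36 ± 0.35 (adjusted p = 0.563), so the difference from the control was present by day 5, and the 2 ages did not differ past the threshold. chinmo, a transcription factor of immature progenitor states, had 346, 378 and 289 CPM at day 9, 357, 333 and 429 CPM at day 5 and 112, 126 and 75.6 CPM in the control. chinmo differed from the control by a log2 value of 1.69 ± 0.36 at day 9 and 1.84 ± 0.36 at day 5. The growth regulator Myc, listed as dm, showed 289.8, 378 and 341 CPM at day 9, 291, 268 and 289 CPM at day 5 and 172, 192 and 174 CPM in the control (0.91 and 0.66).

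The cell survival gene Diap1 and the G1/S cyclin gene CycE were raised less, by 0.62 and 0.61 on the log2 scale at day 9 and by 0.41 and 0.44 at day 5. The glypican genes dally and dlp, whose products carry morphogens across the epithelium, were up by 0.54 and 0.70 at day 9. dlp was the only target called higher at day 9 than at day 5 (0.37 ± 0.09, adjusted p = 0.0278), a call lost without wts day 9 replicate 1 or 3 or any 1 of the wts day 5 libraries. crb and E2f1 were called at day 9 alone (0.49 and 0.33), E2f1 not without control replicate 1. For dlp the call at day 5 was lost without control replicate 2 or 3 or wts day 5 replicate 2. vestigial (vg), the wing selector that binds Scalloped, went the other way, with 143, 131 and 123 CPM at day 9, 177, 185 and 173 CPM at day 5 and 252, 264 and 215 CPM in the control. The 3 groups did not overlap, and vg fell by day 5 (-0.45 ± 0.08) and further by day 9 (-0.88 ± 0.08 against the control, adjusted p = 1.85e-06, and -0.43 ± 0.08 against day 5, adjusted p = 0.0061). That last call held. fj, wg, Mer, CycB, nmdyn-D6 and Cdc6 had no call at day 9, with log2 fold changes between -0.19 and 0.18.

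**Figure D2:**
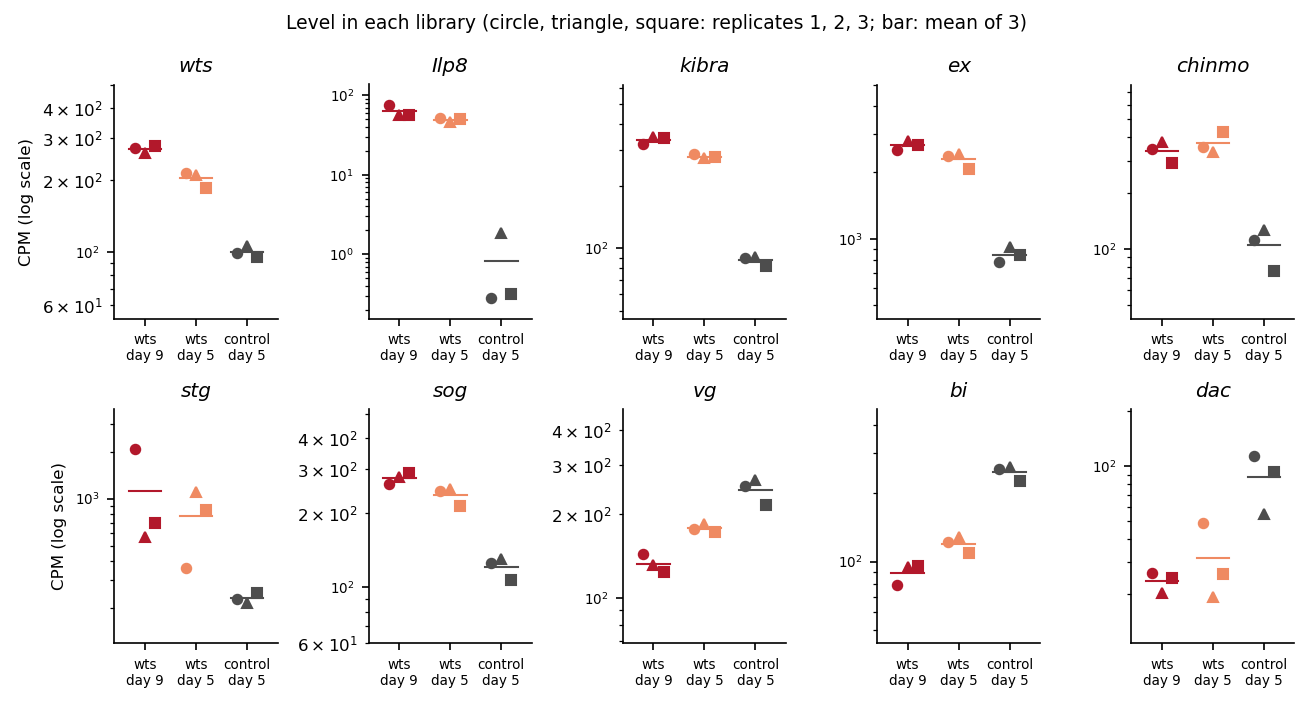
CPM on a log axis of 10 genes in each library of wts discs at day 9 and day 5 and of control discs at day 5; points are libraries and bars are means of 3. wts, Ilp8, kibra, ex, chinmo, stg and sog are higher in every wts library than in every control library, and vg, bi and dac are lower.

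Among 27 tested components of the Hippo pathway, 7 were called higher and 2 lower at day 9, where 14.8% and 13.7% of all genes were. Beside wts, ex and kibra the 7 included the atypical cadherin gene ft (0.66, and 0.59 at day 5) and Wbp2, a Yorkie partner (0.59 and 0.36). The kinase gene hpo was lower by a small margin at both ages (-0.35 and -0.28), as was Tgi, a corepressor that binds Scalloped (-0.38 and -0.71), whose day 9 call was lost without control replicate 1. The day 5 call of Wbp2 was lost without any 1 control library or wts day 5 replicate 1 or 3. yki itself was higher by 0.24 at day 9, a call lost without wts day 9 replicate 2 or 3 or control replicate 3.

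In the list of secreted hormones and tumour-derived signals, 8 of 17 tested genes were called higher at day 9, with a median of 0.70. By edgeR 0 were lower (1 lower at an unadjusted p under 0.05, and 0 by DESeq2). Between 6 and 8 were called higher whichever library was left out. At day 5, 5 were higher and 2 lower with a median of 0.10, the 5 being 3 without wts day 5 replicate 3 and the 2 being 0 without it and 1 without control replicate 1 or 3 or wts day 5 replicate 1. The Unpaired ligand of the JAK/STAT pathway listed as os (upd1) had 17.2, 20.3 and 21.8 CPM at day 9, 24.1, 21.3 and 23.6 CPM at day 5 and 11.1, 11.1 and 11.3 CPM in the control. os (upd1) differed from the control by a log2 value of 0.83 ± 0.12 at day 9 and 1.04 ± 0.12 at day 5. upd3 was higher too (0.94 and 1.27), and upd2 was not called at either age. The day 9 call of upd3 was lost without any 1 of the 9 libraries but wts day 5 replicate 2, and its day 5 call without wts day 5 replicate 3. The FGF ligand gene ths and the TGF-beta family gene myo were up at both ages (0.70 and 0.76 at day 9, 0.62 and 0.52 at day 5). For myo the day 5 call was lost without control replicate 1 or 2 or wts day 5 replicate 3.

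The PDGF- and VEGF-related ligands Pvf1 and Pvf3 came later. Pvf1 stood at 12.9, 8.12 and 10.6 CPM in wts day 9 libraries, 5.15, 5.74 and 5.75 CPM in wts day 5 libraries and 4.66, 4.17 and 5.51 CPM in control libraries. Its day 9 libraries lay above all others, while day 5 wts and control libraries overlapped. It was higher by 1.14 ± 0.17 than in the control (adjusted p = 0.000262) and by 0.93 ± 0.17 than at day 5 (adjusted p = 0.00715), a call that held. Pvf3 had 19.1, 14.5 and 18.3 CPM at day 9, 9.58, 10.3 and 8.86 CPM at day 5 and 10.1, 5.15 and 7.47 CPM in the control (1.19 ± 0.22 against the control, and 0.85 ± 0.22 against day 5 with adjusted p = 0.0318, lost without wts day 9 replicate 1 or 3 or any wts day 5 library). daw, a TGF-beta ligand gene, was uneven, at 3.88, 11.7 and 16.2 CPM at day 9, 0.521, 0.567 and 0.777 CPM at day 5 and 5.92, 0.577 and 3.71 CPM in the control. It was called between ages (4.07 ± 0.89, adjusted p = 0.0161), not without wts day 9 replicate 3 or any wts day 5 library, and not against the control (1.64 ± 0.76, adjusted p = 0.118).

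Of 14 listed JAK/STAT genes 4 were called higher at day 9, namely os, upd3, chinmo and the phosphatase gene Ptp61F (0.30), while the receptor gene dome, Stat92E and the target gene Socs36E had no call. The JNK list, a pathway that wounded discs activate, had 5 of 18 genes higher and 1 lower, where 14.8% and 13.7% of all genes were. The 5 were 2 without wts day 9 replicate 2 or 3 or control replicate 1 or 3, and 3 without any 1 wts day 5 library. The filamin gene cher was the clear member, with 1329, 1294 and 1229 CPM at day 9, 1462, 1501 and 1330 CPM at day 5 and 519.9, 638 and 458 CPM in the control. cher differed from the control by a log2 value of 1.25 ± 0.16 at day 9 and 1.41 ± 0.16 at day 5 (adjusted p = 5.39e-05 and 3.56e-05). grnd, the receptor for the tumour necrosis factor ligand Eiger, listed as CG10176, was up by 0.48 and 0.45. The phosphatase gene puc, a common JNK reporter, egr, bsk, Jra and kay had no call at day 9.

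The EGFR and Ras list holds pathway components together with genes listed as targets of the repressor Capicua. Its members ind and tll fell under the count filter. Of its 21 tested genes 9 were higher and 2 lower at day 9, and 3 were higher and 3 lower at day 5. The 2 lower at day 9 were 1 without wts day 9 replicate 2 or 3 or control replicate 3, and the 3 higher at day 5 were 1 without wts day 5 replicate 1 or 3. string (stg), the Cdc25 phosphatase that drives entry into mitosis, rose most but was uneven, at 2071, 566 and 698 CPM in wts day 9 libraries, 360.3, 1097 and 852 CPM in wts day 5 libraries and 229, 214 and 249.6 CPM in control libraries. wts day 9 replicate 1 was more than 3 times as high as replicate 2, yet no wts library overlapped the control (2.27 ± 0.42, adjusted p = 0.00119, and 1.74 ± 0.41, adjusted p = 0.00966). Ligand and receptor genes of the pathway were up at day 9, with spi at 0.86, Egfr at 0.51 and vn at 0.38, of which vn was also called at day 5 (0.22). The feedback inhibitor aos was up at both ages (0.50 and 0.39). The day 5 calls were lost for vn without control replicate 3 or any 1 wts day 5 library, and for aos without control replicate 1 or 3 or wts day 5 replicate 1 or 3. The ETS factor gene pnt, in contrast, was lower at both (-0.62 ± 0.11 and -0.81 ± 0.11), with 48.9, 41.5 and 45.5 CPM at day 9, 41.9, 39.5 and 37.2 CPM at day 5 and 68.8, 72.6 and 67.0 CPM in the control. Krn and edl were the 2 members called later, by 0.44 and 0.35 over the control and 0.54 and 0.38 over day 5. The calls against day 5 were lost without wts day 9 replicate 1 or 3 or wts day 5 replicate 2 or 3 in both genes. The day 9 call against the control was lost for Krn without wts day 9 replicate 3 or control replicate 2 or 3, and for edl without wts day 9 replicate 1 or control replicate 1.

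Dpp, the BMP ligand that patterns the wing along its anterior-posterior axis, showed a mixed list with 9 of 16 genes higher and 2 lower at day 9, the 9 falling to 5 without control replicate 2. The T-box gene bifid (bi), a Dpp target, had 78.6, 94.6 and 95.4 CPM in wts day 9 libraries, 122, 128 and 109 CPM in wts day 5 libraries and 256, 260.5 and 226 CPM in control libraries. Every wts library lay below every control library (-1.47 ± 0.13, adjusted p = 2.33e-06, and -1.05 ± 0.13, adjusted p = 9.9e-05), and Dad, an inhibitory Smad gene that Dpp induces, was lower too (-0.43 and -0.48). The extracellular BMP antagonist sog had 259.8, 278 and 289.6 CPM in wts day 9 libraries, 244, 248 and 212 CPM in wts day 5 libraries and 125, 129.8 and 107 CPM in control libraries, with no overlap (1.19 ± 0.09 and 0.96 ± 0.09, adjusted p = 6.24e-07 and 1.01e-05). brk, the repressor of Dpp targets that Dpp signalling turns off, was up by 0.84 and 0.92, and the secreted modulator gene magu by 0.74 and 0.94. The receptor gene tkv was called at day 9 alone (0.52), and dpp itself moved by 0.24, a call lost without wts day 9 replicate 1 or control replicate 1 or 2.

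Calls in the Wg and Hedgehog lists are to be read beside those of all genes, 14.8% higher and 13.7% lower. Of 20 Wg pathway genes 3 were higher, the receptor genes fz2 (0.62) and arr (0.46) and the TCF gene pan (0.52), and 5 were lower, all 5 already at day 5. The 5 were 3 without wts day 9 replicate 1 or 2 or control replicate 3, and 2 without control replicate 1. Leaving out any 1 of the 9 libraries ended the day 5 call of fz2. Wnt2 was the most reduced ligand gene (-1.26 ± 0.23, and -1.96 ± 0.23 at day 5), while wg was not called. In the Hedgehog list of 14, 3 were higher and 2 lower at day 9, with 1 lower without wts day 9 replicate 2 or 3 or control replicate 1 or 3. The receptor and target gene ptc was lower (-0.59 and -0.70) and the co-receptor gene boi higher (0.61 and 0.52). hh, smo and ci were not called.

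The Notch list was the one most reduced at both ages among the signalling pathways, with 11 of 25 genes lower and 2 higher at day 9 and 11 lower and 1 higher at day 5, and 10 of the 11 were the same at both. Without control replicate 3 the 11 at day 9 became 6 and the 11 at day 5 also 6, and those at day 5 were 7 without control replicate 1 and 5 without wts day 5 replicate 3. Nearly all were genes of the E(spl) complex, which are direct Notch targets. E(spl)mgamma-HLH stood at 1.38, 0.988 and 0.867 CPM in wts day 9 libraries, 3.44, 2.34 and 2.54 CPM in wts day 5 libraries and 6.62, 5.51 and 8.63 CPM in control libraries, the groups not overlapping (-2.68 ± 0.28, adjusted p = 8.2e-06, and -1.31 ± 0.26 at day 5). It was also lower at day 9 than at day 5 (-1.36 ± 0.27, adjusted p = 0.0103), a call lost without wts day 9 replicate 3. E(spl)m4-BFM had 3.93, 6.92 and 5.1 CPM at day 9, 12.3, 9.42 and 11.1 CPM at day 5 and 31.3, 14.7 and 31.6 CPM in the control, with control replicate 2 below the other 2 control libraries. It differed from the control by -2.28 and -1.24, the day 5 call lost without control replicate 1 or 3 or wts day 5 replicate 2 or 3. E(spl)m2-BFM and E(spl)mdelta-HLH were lower as well, at -1.22 and -1.47 at day 9. N, Dl and Su(H), the receptor, a ligand and the nuclear effector, were not called, whereas the ligand gene Ser was among the lower genes (-0.38 and -0.35) and the glycosyltransferase gene fng among the higher (0.48 and 0.44). The genes of this complex lie next to each other and resemble each other, and the labels do not say whether reads were counted by strand. Reads may therefore be split between neighbours.

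Proneural genes, which the E(spl) proteins of the HLH type repress, were reduced as well. Of 12 tested members 5 were lower at day 9, 4 of them already at day 5. The 5 members lower in all at day 5 were 2 without wts day 5 replicate 3. achaete (ac) had 7.33, 7.91 and 7.61 CPM at day 9, 9.21, 8.15 and 10.0 CPM at day 5 and 16.7, 15.2 and 19.8 CPM in the control (-1.18 ± 0.14 and -0.91 ± 0.14) and scute (sc) 13.1, 11.3 and 12.2 CPM at day 9, 13.8, 11.8 and 11.8 CPM at day 5 and 23.5, 17.3 and 33.3 CPM in the control. sc differed from the control by a log2 value of -1.02 ± 0.22 at day 9 and -0.98 ± 0.22 at day 5. ttk, which blocks neural fate, was the 1 member higher (0.74 and 0.36). The day 5 call of ttk was lost without control replicate 1 or 2 or any wts day 5 library. In a bulk sample, fewer cells of a type and less RNA per cell cannot be told apart, here and in all that follows.

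Patterning genes of the wing pouch moved in both directions. Of 16, 7 were higher and 2 lower at day 9, and 3 were higher and 3 lower at day 5, with 4 of the 7 left without wts day 9 replicate 2 or control replicate 1 or 2. dve, a homeobox gene of the pouch, had 276, 262 and 266 CPM at day 9, 194, 209.5 and 168 CPM at day 5 and 133, 118 and 114 CPM in the control. dve differed from the control by a log2 value of 1.14 ± 0.13 at day 9 and 0.65 ± 0.13 at day 5. rn, another pouch gene, was up by 0.66 and 0.43, and pdm2 was down (-0.89 and -0.64). nub, sd and ap were not called. In the notum list of 22, 5 were higher and 1 lower at day 9, where 14.8% and 13.7% of all genes were. The zinc finger gene tio was up by 0.83 and 0.54, the day 5 call lost without any 1 of the 9 libraries. Doc2, a T-box gene, was up by 0.84 at day 9 and the Pax gene toe by 0.61 at day 9 and 0.68 over day 5, the second call lost without wts day 9 replicate 2 or 3 or wts day 5 replicate 2 or 3.

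Of 8 markers of leg and haltere discs, 6 were called lower at day 9 and 3 at day 5, but the control libraries differed among themselves in these genes. At day 9, 3 were left without wts day 9 replicate 2 or 3, and the 3 at day 5 were 1 without control replicate 1 or wts day 5 replicate 2 and 5 without control replicate 2. Their summed level was between 194 and 201 CPM at day 9, between 156 and 253 CPM in wts discs at day 5, and 523, 222 and 407 CPM in control replicates 1 to 3. dac, the leg and retinal determination gene, had 26.1, 20.5 and 24.7 CPM at day 9, 49.2, 19.5 and 25.8 CPM at day 5 and 114, 55.2 and 92.7 CPM in the control. dac differed from the control by a log2 value of -1.87 ± 0.31 at day 9 and -1.46 ± 0.31 at day 5. Ubx, the haltere selector, had 19.0, 13.4 and 8.86 CPM at day 9, 11.2, 7.16 and 17.9 CPM at day 5 and 70.4, 18.2 and 53.9 CPM in the control, so that control replicate 2 lay within the range of wts libraries and the other 2 above it. The day 9 call of Ubx was lost without wts day 9 replicate 2 or 3 or control replicate 1, and its day 5 call without control replicate 1 or wts day 5 replicate 1 or 2. The part of neighbouring discs in these differences was not tested. eya, a retinal determination gene that is also expressed in wing discs, went up instead, at 39.4, 43.8 and 45.3 CPM at day 9, 34.1, 27.9 and 25.3 CPM at day 5 and 17.1, 12.3 and 18.6 CPM in the control. eya differed from the control by a log2 value of 1.42 ± 0.21 at day 9 and 0.86 ± 0.21 at day 5, its day 5 call lost without wts day 5 replicate 1.

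**Figure D3:**
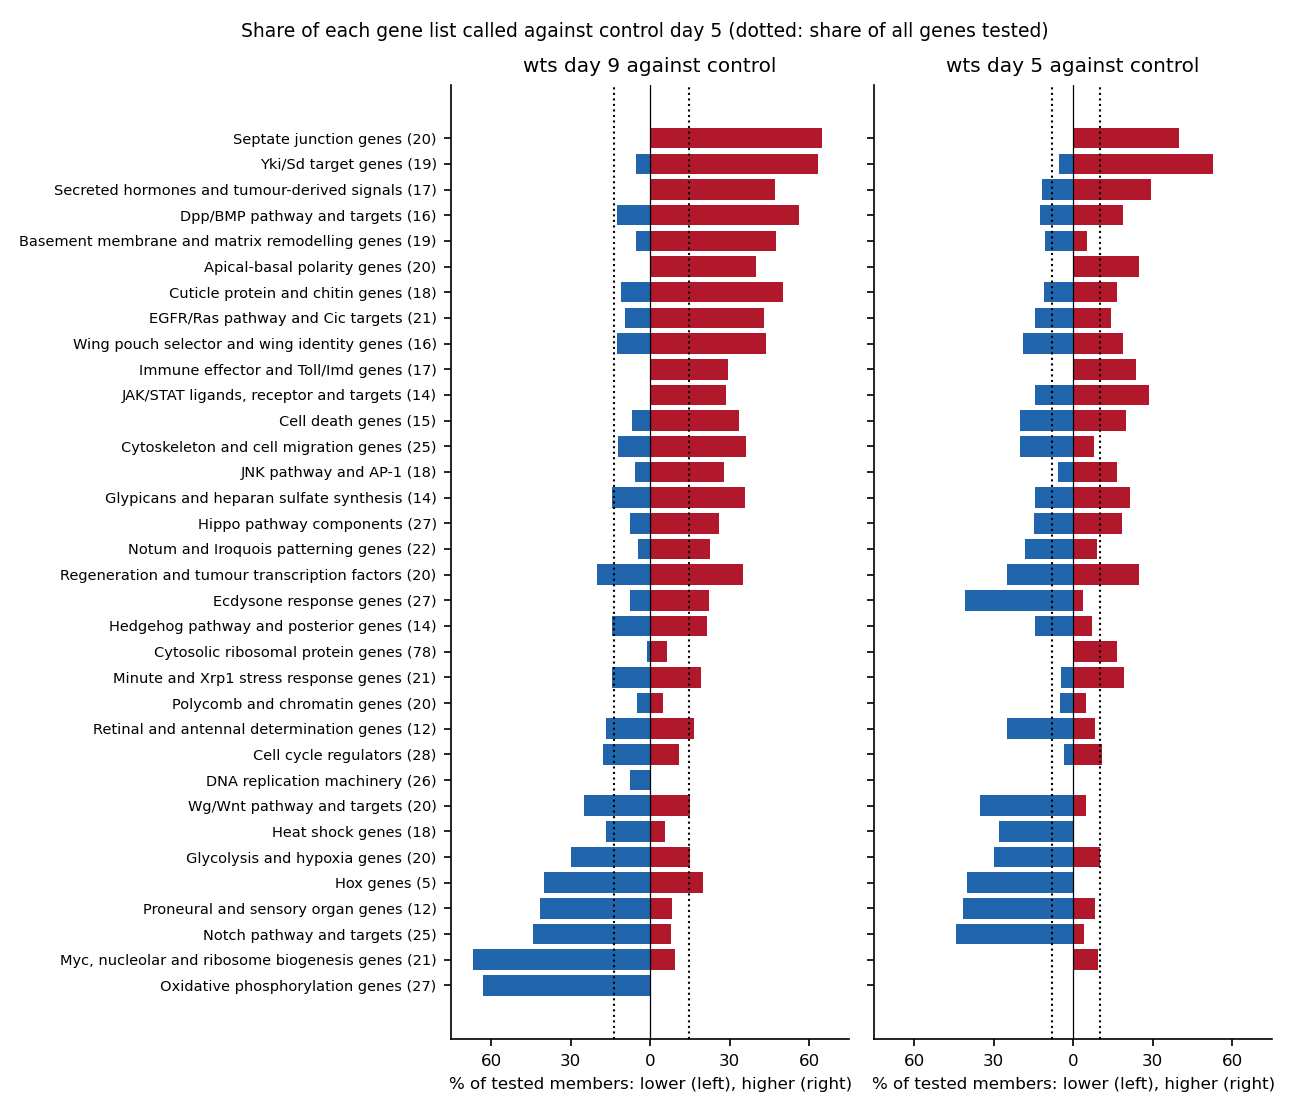
Share of the tested members of 34 gene lists called higher (red, right) or lower (blue, left) against control day 5, in wts discs at day 9 (left panel) and at day 5 (right panel); member numbers are in brackets and dotted lines give the share of all genes tested. Septate junction and Yki/Sd target genes reach furthest to the right at day 9, and oxidative phosphorylation and nucleolar genes furthest to the left, where neither has a lower call at day 5.

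Genes of cellular respiration and ribosome production were called lower at day 9 in number, with no such calls at day 5. For 11 of the 17 respiration genes and 13 of the 14 ribosome production genes so called, the ages did not differ by the test. The timing of those changes was not resolved. In the oxidative phosphorylation list, subunits of the mitochondrial respiratory complexes and ATP synthase, 17 of 27 genes were called lower at day 9 and 0 higher by edgeR (0 higher at an unadjusted p under 0.05 and 0 by DESeq2), with a median of -0.29. At day 5, 0 were called by edgeR (1 lower at an unadjusted p under 0.05 and 1 by DESeq2) and the median was -0.03. The differences were small and the count depended on single libraries, at 6 without wts day 9 replicate 2 and 10 without wts day 9 replicate 3 or control replicate 1. COX7A, a cytochrome oxidase subunit gene, had 152, 113 and 124 CPM at day 9, 156, 172 and 177 CPM at day 5 and 182, 184 and 182 CPM in the control. Day 9 libraries lay below all others, replicate 1 by the least (-0.50 ± 0.09, adjusted p = 0.00114, and -0.12 ± 0.09, adjusted p = 0.391). Against day 5, 6 members including COX7A (-0.38) and COX5B (-0.42) were called lower. That count was 0 without wts day 9 replicate 2 or wts day 5 replicate 2 or 3, 1 without wts day 9 replicate 3 and 3 without wts day 9 replicate 1, control replicate 1 or wts day 5 replicate 1.

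In the list of Myc, nucleolar and ribosome biogenesis genes, 14 of 21 were lower and 2 higher at day 9, with a median of -0.33. At day 5 the same 2 were higher and 0 lower by edgeR (4 lower at an unadjusted p under 0.05 and 1 by DESeq2). The median at day 5 was -0.15. The 14 became 7 without wts day 9 replicate 2 or control replicate 2, and 9 without wts day 9 replicate 3 or control replicate 1. The 2 higher genes were Myc itself and its partner Max (0.24). Max lost its day 9 call without any 1 of the 9 libraries but wts day 9 replicate 1 and wts day 5 replicate 3, and its day 5 call without control replicate 3 or wts day 5 replicate 3. At day 5, 2 members were lower without control replicate 3 or wts day 5 replicate 2. nop5, a core protein of the snoRNPs that modify ribosomal RNA, stood at 291, 262 and 278 CPM in wts day 9 libraries, 313, 366 and 309.6 CPM in wts day 5 libraries and 420.5, 487 and 358 CPM in control libraries. All 3 day 9 libraries were below all others (-0.61 ± 0.12, adjusted p = 0.00236), and at day 5 the difference did not pass (-0.36 ± 0.12, adjusted p = 0.0586). Surf6 was the single member called between the ages (-0.32 ± 0.08, adjusted p = 0.0208), with -0.47 against the control, and that call between ages was lost without wts day 9 replicate 1 or 2 or wts day 5 replicate 2 or 3.

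Over all genes tested, 10% were called higher at day 5, 14.8% higher and 13.7% lower at day 9, and 2.7% lower between the ages. Of 78 cytosolic ribosomal protein genes, 13 were higher at day 5. At day 9, 5 were higher and 1 lower than in the control, and 5 were lower than at day 5. The last 5 were 1 without wts day 9 replicate 2 or 3 or wts day 5 replicate 2 and 0 without wts day 5 replicate 3, and the 1 lower at day 9 was 0 without wts day 9 replicate 2 or 3 or any 1 control library. The median was 0.06 at day 9 and 0.17 at day 5. The 13 at day 5 were between 5 and 7 without control replicate 1 or 3 or wts day 5 replicate 1 or 3. The 5 higher at day 9 were between 0 and 3 without any 1 of control replicates 1 and 3, the 3 wts day 9 libraries or wts day 5 replicate 1. Of 20 glycolysis and hypoxia genes, 6 were lower and 3 higher at day 9, and 6 lower and 2 higher at day 5. The 3 higher at day 9 were 1 without wts day 9 replicate 2 or 3 or control replicate 1 or 3. At day 5 the 6 lower were 3 without control replicate 2 and 2 without wts day 5 replicate 3, and the 2 higher were 1 without control replicate 3 or wts day 5 replicate 1 or 3. Eno, the enolase gene, had 435, 353 and 381 CPM at day 9, 444, 478 and 411 CPM at day 5 and 715, 632 and 514 CPM in the control. Eno differed from the control by a log2 value of -0.67 ± 0.14 at day 9 and -0.48 ± 0.14 at day 5, and Gapdh1, Tpi and Pglym78 had log2 fold changes of -0.67, -0.64 and -0.63 at day 9. For Eno the call at day 5 was lost without control replicate 1 or 2 or wts day 5 replicate 1 or 3. That of Gapdh1 was lost without wts day 9 replicate 3, control replicate 2 or 3 or wts day 5 replicate 1 or 3, and that of Tpi without wts day 5 replicate 3. The lactate dehydrogenase gene, listed as ImpL3 and also counted among the ecdysone genes, had 10.5, 61.1 and 81.7 CPM at day 9, 9.47, 14.2 and 7.05 CPM at day 5 and 11.1, 18.2 and 15.7 CPM in the control. It was thus high in wts day 9 replicates 2 and 3 alone, and its call against the control (1.77) was lost without wts day 9 replicate 2 or 3 or any 1 control library.

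Among 28 cell cycle regulators 3 were higher at day 9 (stg, CycE and E2f1) and 5 lower, where 14.8% and 13.7% of all genes were. With total-count scaling 9 were lower. Of 26 genes of the DNA replication machinery 0 were higher by edgeR (1 at an unadjusted p under 0.05 and 0 by DESeq2) and 2 lower, or 5 lower without control replicate 3. Other scalings, smaller fits and DESeq2 gave between 4 and 7 lower. Cdk1, the mitotic kinase gene, had 119.5, 114 and 114 CPM at day 9, 130.5, 153 and 148 CPM at day 5 and 154, 144 and 159.5 CPM in the control. It differed by -0.40 ± 0.08 from the control and by -0.31 ± 0.08 from day 5, the second call lost without any 1 wts day 9 library or wts day 5 replicate 2 or 3. PCNA, RnrL and the replication factor genes Mcm3, Mcm5 and Mcm6 were not called at either age. Total cell number and DNA content are not measured by these libraries.

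Genes of epithelial structure were among the higher ones at both ages. Septate junctions seal the disc epithelium on its lateral side, and 13 of 20 of their genes were higher at day 9 (median 0.30) and 8 at day 5, with 0 lower on both days by edgeR, by DESeq2 and at an unadjusted p under 0.05. Between 9 and 15 were higher at day 9 when a library was left out, and at day 5 the count was 5 without control replicate 1 or 3 or wts day 5 replicate 3 and 4 without wts day 5 replicate 1. Cont, which encodes the cell adhesion protein contactin, stood at 1206, 1282 and 1218 CPM in wts day 9 libraries, 1101, 1081 and 1025 CPM in wts day 5 libraries and 809.9, 881 and 824 CPM in control libraries. The 3 groups did not overlap (0.56 ± 0.08, adjusted p = 0.000118, and 0.35 ± 0.08, adjusted p = 0.00593). sinu and pck, claudin genes, were up by 0.51 and 0.48 at day 9 and by 0.34 and 0.27 at day 5. The day 5 calls of both were lost without control replicate 1 or wts day 5 replicate 1 or 3, and that of pck also without control replicate 3. Of 20 polarity genes 8 were higher at day 9, a count that was 3 without wts day 9 replicate 2 and 4 without wts day 9 replicate 3 or control replicate 1. The apical determinant sdt was up by 0.55 and 0.38, the day 5 call lost without wts day 9 replicate 3, control replicate 1 or 3 or any wts day 5 library.

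In the basement membrane and matrix list 9 of 19 genes were higher and 1 lower at day 9, but 1 higher and 2 lower at day 5, and without a library the 9 lay between 6 and 8. The 1 lower at day 9 was 0 without wts day 9 replicate 2 or 3. At day 5 the 2 lower were 0 without control replicate 1 or 3 or wts day 5 replicate 2 or 3, and 1 without wts day 9 replicate 3 or wts day 5 replicate 1. Timp, the inhibitor of matrix metalloproteinases, had 11.6, 13.1 and 12.6 CPM in wts day 9 libraries, 7.24, 5.81 and 5.8 CPM in wts day 5 libraries and 6.99, 6.66 and 7.36 CPM in control libraries. Only the day 9 libraries stood apart (0.83 ± 0.16 against the control, adjusted p = 0.00154, and 0.98 ± 0.16 against day 5, adjusted p = 0.0031), and both calls held. mys, the beta integrin gene, had 464, 456 and 454 CPM at day 9, 383, 341 and 342 CPM at day 5 and 306, 321 and 300.0 CPM in the control (0.57 ± 0.08, and 0.37 ± 0.08 against day 5, lost without wts day 5 replicate 2 or 3). mew, an alpha integrin gene, was higher by 0.39 than in the control. The laminin genes LanA and LanB1 were up by 0.47 and 0.51, LanB1 also at day 5 (0.33). The collagen IV genes Cg25C and vkg, which hemocytes and fat body also make, were not called at day 9. The 15 hemocyte markers summed to between 853 and 1162 CPM at day 9, between 584 and 801 CPM in wts discs at day 5 and between 737 and 1105 CPM in the control, and 1 of 13 tested was called at day 9, vir-1 (1.18). Their part in the result was not tested.

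Of 25 cytoskeletal genes 9 were higher and 3 lower at day 9, where 14.8% and 13.7% of all genes were. Without wts day 9 replicate 1, 5 of the 9 were left. With total-count scaling 5 were higher and 7 lower. zip, the heavy chain of non-muscle myosin II, was up by 0.39 and the Z-band protein gene Zasp52 by 0.50, and the capping protein gene cpa was down (-0.40). In the glypican list 5 of 14 were higher and 2 lower at day 9, and the 5 were 3 without any 1 wts day 9 library, control replicate 1 or 2 or wts day 5 replicate 2. The sulfotransferase gene sfl was up at both ages (0.60 and 0.47), while sgl, which makes the sugar precursor of heparan sulfate, was down at both (-0.67 and -0.83).

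**Figure D4:**
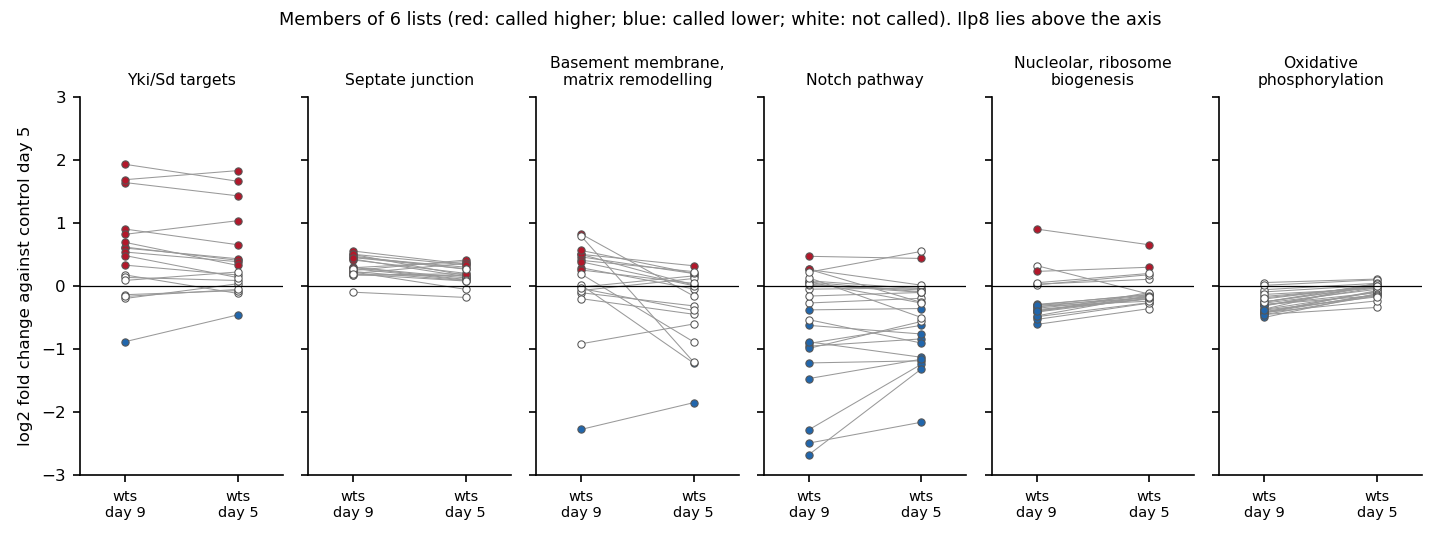
Log2 fold change against control day 5 of each tested member of 6 lists in wts discs at day 9 (left points) and day 5 (right points); lines join the same gene, red marks a call higher, blue a call lower and white no call. Called Yki/Sd targets lie mostly above 0 and called Notch genes mostly below 0 at both ages, beside uncalled members in each list. Blue points of the nucleolar and oxidative phosphorylation lists appear at day 9 only, and most of those genes were not called between the ages.

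Ecdysone-linked genes set the 2 ages of wts discs apart. Ecdysone is the steroid whose pulse at the end of the 3rd instar starts metamorphosis, through a cascade of early and late genes. Of 27 listed genes 11 were lower than in the control at day 5 and 1 was higher, with a median of -0.55, and 6 were higher and 2 lower at day 9, with a median of -0.07. The 6 were 3 without wts day 9 replicate 2 or control replicate 2 or 3, and the 2 were 0 without wts day 9 replicate 2 or 3 and 1 without control replicate 1 or 3. Between day 9 and day 5, 11 were higher (median 1.17) and 0 lower by edgeR, by DESeq2 and at an unadjusted p under 0.05. The 11 at day 5 were 7, 5 and 4 without wts day 5 replicates 1, 2 and 3, and 7 without control replicate 1. The 11 between ages were 3, 7 and 3 without wts day 9 replicates 1, 2 and 3, and 5, 1 and 0 without wts day 5 replicates 1, 2 and 3.

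The libraries within a group differed sharply in these genes. Blimp-1, which encodes a repressor that times the prepupal stage, stood at 61.4, 6.29 and 44.5 CPM in wts day 9 libraries, 0.469, 0.496 and 0.104 CPM in wts day 5 libraries and 109.7, 0.577 and 104 CPM in control libraries. All wts day 5 libraries were low, and so was control replicate 2, which lay within 1 CPM of them. ImpE2, an ecdysone-inducible secreted protein gene, had 946, 248 and 630.1 CPM in wts day 9 libraries, 73.6, 68.0 and 22.3 CPM in wts day 5 libraries and 2206, 452 and 2678 CPM in control libraries, with control replicate 2 and wts day 9 replicate 2 the lowest of their groups. Hr4, a nuclear receptor gene of the cascade, had 62.2, 5.51 and 31.3 CPM at day 9, 2.5, 2.13 and 2.69 CPM at day 5 and 187, 2.62 and 156 CPM in the control, in the same arrangement. In 12 of the 27 genes both control replicate 2 and wts day 9 replicate 2 were the lowest of their 3. Over all genes tested, control replicate 2 was the lowest control in 32.9% and wts day 9 replicate 2 the lowest of its group in 33.6%. The share of all genes with both was not counted. Against the control, Blimp-1 had a log2 fold change of -0.93 ± 1.16 at day 9 (adjusted p = 0.571) and -7.67 ± 1.86 at day 5 (adjusted p = 0.0104), and ImpE2 of -1.55 ± 0.85 (adjusted p = 0.183) and -5.03 ± 0.99 (adjusted p = 0.0029). Against day 5, both were higher at day 9 (6.74 ± 1.86 and 3.48 ± 0.92, adjusted p = 0.0412 and 0.0358). Neither call held without wts day 9 replicate 1 or 3 or any wts day 5 library, nor that of Blimp-1 without control replicate 1. The day 5 call of Blimp-1 was lost without wts day 5 replicate 3.

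Eip93F and Eip74EF, in contrast, were higher in every day 9 library than in any wts day 5 or control library, by unlike amounts. Eip93F, which encodes the E93 factor of the pupal to adult switch, had 1.54, 2.19 and 1.73 CPM in wts day 9 libraries, 0.416, 0.213 and 0.155 CPM in wts day 5 libraries and 0.373, 0.178 and 0.53 CPM in control libraries. Levels were low throughout, but no day 9 library overlapped the others (2.33 ± 0.47 against the control, adjusted p = 0.0021, and 2.76 ± 0.49 against day 5, adjusted p = 0.0055, the second lost without wts day 5 replicate 3). Eip74EF, an early ETS factor gene, had 207, 212 and 198 CPM at day 9, 174, 139 and 148 CPM at day 5 and 163, 141 and 169 CPM in the control (0.38 ± 0.09, and 0.42 ± 0.09 against day 5, lost without wts day 9 replicate 2 or wts day 5 replicate 2 or 3). br, which encodes the Broad factors of the larval to pupal switch, was lower at day 5 (-0.48, lost without wts day 9 replicate 3, any control library or wts day 5 replicate 2 or 3) and was not called at day 9 (0.09). The hormone receptor genes EcR and usp were not called on either day.

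**Figure D5:**
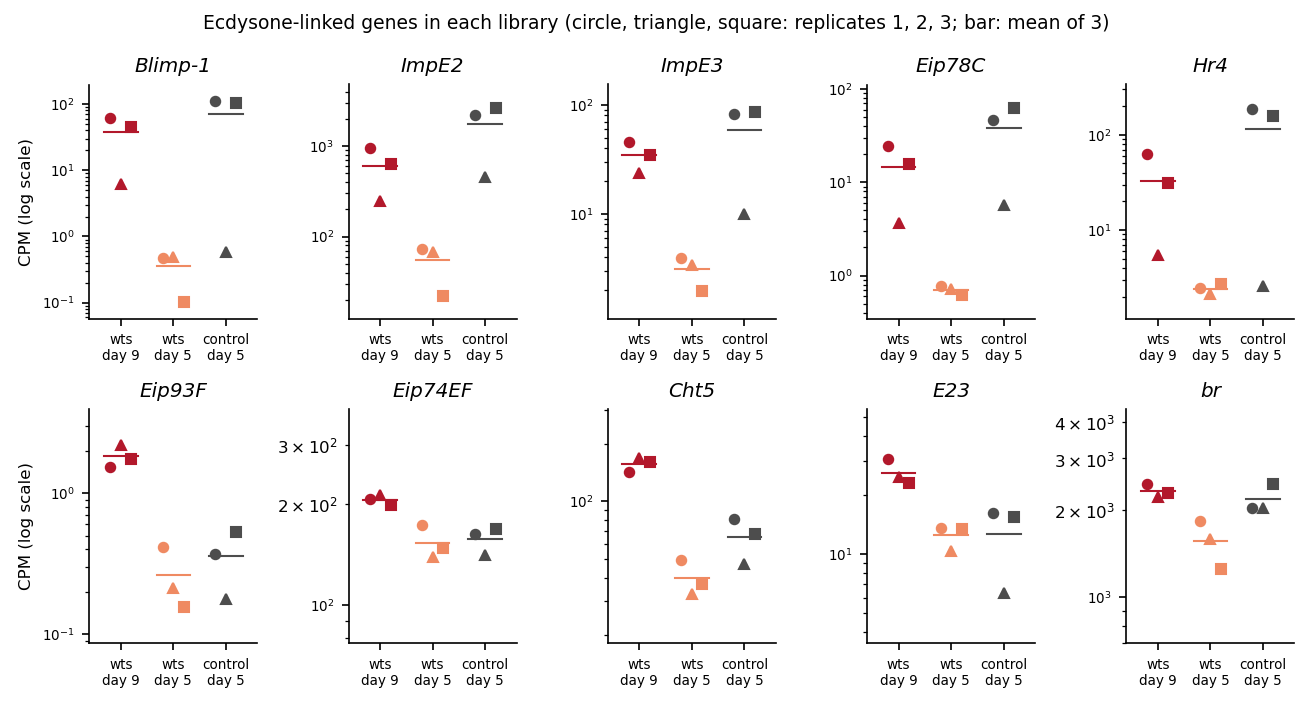
CPM on a log axis of 10 ecdysone-linked and cuticle genes in each library of wts discs at day 9 and day 5 and of control discs at day 5; points are libraries and bars are means of 3. For Blimp-1, ImpE2, ImpE3, Eip78C and Hr4 the wts day 5 libraries are low and replicate 2 is the lowest of the day 9 and of the control libraries, while Eip93F, Eip74EF, Cht5 and E23 are highest in day 9 libraries.

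Genes for cuticle and chitin, which the disc epithelium makes at metamorphosis, had 9 of 18 members higher and 2 lower at day 9, against 3 and 2 at day 5. The 2 lower at day 9 were 0 without control replicate 2 or wts day 9 replicate 2 or 3, and 1 without control replicate 1, and the 2 lower at day 5 were 0 without wts day 5 replicate 1 or 2 and 1 without control replicate 2 or wts day 5 replicate 3. Cht5, a chitinase gene, had 142, 168 and 160.5 CPM in wts day 9 libraries, 49.2, 32.7 and 36.9 CPM in wts day 5 libraries and 80.5, 46.9 and 67.8 CPM in control libraries. Day 9 libraries stood above all others, with 1.27 ± 0.31 over the control (adjusted p = 0.00706) and 1.98 ± 0.32 over day 5 (adjusted p = 0.0029), and both calls held. Cpr51A, a cuticle protein gene, was up at both ages, at 78.7, 89.8 and 65.9 CPM at day 9, 41.7, 38.8 and 52.2 CPM at day 5 and 23.8, 19.4 and 16.1 CPM in the control (1.98 ± 0.28 and 1.16 ± 0.28, the second lost without wts day 5 replicate 3). Cpr100A, a further one outside the list, was low in all but the day 9 libraries, at 2.66, 6.87 and 5.97 CPM at day 9, 0.208, 1.06 and 0 CPM at day 5 and 0.0466, 0.0888 and 0.159 CPM in the control. verm and serp, chitin deacetylase genes, were up by 0.84 and 0.80 at day 9. Both also stand in the tracheal marker list, 4 of 11 higher at day 9, together with Gasp (0.99) and uif (0.86), while btl, the tracheal FGF receptor gene, was down (-0.52, lost without wts day 9 replicate 2) and trh was not called.

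Cell death genes were mixed, 5 of 15 higher and 1 lower at day 9, where 14.8% and 13.7% of all genes were. The death inducer hid had 143, 170.0 and 162 CPM at day 9, 112, 94.6 and 102 CPM at day 5 and 85.0, 80.0 and 121 CPM in the control, with day 9 libraries above all others (0.73 ± 0.19, adjusted p = 0.00984, and no call at day 5). Diap1 and Diap2, whose products inhibit caspases, were up at both ages (Diap2 by 0.65 and 0.45), and rpr, another inducer, was lower at day 9 (-1.20), a call lost without wts day 9 replicate 1 or 3 or control replicate 2. Of 21 genes of the Minute and Xrp1 stress response, 4 were higher and 3 lower, where 14.8% and 13.7% of all genes were. Without control replicate 3, 5 were lower. crc, the ATF4 gene, had 1568, 1820 and 1704 CPM at day 9, 1451, 1391 and 1509 CPM at day 5 and 944, 1001 and 954 CPM in the control. crc differed from the control by a log2 value of 0.81 ± 0.08 at day 9 and 0.59 ± 0.08 at day 5 (adjusted p = 4.66e-06 and 0.000169), and REPTOR, a factor that TOR inhibits, listed as CG13624, was up by 0.98 and 0.86. Xrp1 itself was not called. The 3 lower genes were glutathione transferases of the GstE cluster, GstE6 among them (-2.09), whose similar copies may share reads.

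Heat shock genes, which encode chaperones, had a median of -1.33 at day 9 and -2.06 at day 5, but not all members passed the test, 3 of 18 lower and 1 higher at day 9 and 5 lower at day 5. At day 5, 14 were lower at an unadjusted p under 0.05 and 10 by DESeq2, and the 5 were 13 without control replicate 3, 2 without control replicate 1 or any 1 wts day 5 library and 3 without wts day 9 replicate 3. At day 9 the 3 became 0 without wts day 9 replicate 2 or 3 or control replicate 1, and 5 without control replicate 3, and the 1 higher was 0 without wts day 9 replicate 1 or 3 or control replicate 3. Hsp27 had 880.3, 664 and 802 CPM at day 9, 501, 526 and 397 CPM at day 5 and 2221, 1319 and 1363 CPM in the control (-1.06 and -1.78), the day 9 call lost without wts day 9 replicate 2 or 3 or control replicate 1. Of 17 tested immune genes 5 were higher at day 9. PGRP-SA, a recognition protein of the Toll pathway, had 29.5, 11.1 and 12.8 CPM in wts day 9 libraries, 6.2, 13.0 and 8.45 CPM in wts day 5 libraries and 1.02, 1.86 and 2.81 CPM in control libraries, all wts libraries above the control (3.23 ± 0.42, adjusted p = 6.35e-05, and 2.28 ± 0.41, adjusted p = 0.00154). Tep2, a thioester protein gene, was up by 1.17 and 1.04, and the receptor gene Tl by 0.75 and 0.43. The antimicrobial peptide genes Drs, Dpt and Mtk fell under the count filter. Among 20 Polycomb and chromatin genes 1 was higher and 1 lower at day 9, and each count lay between 0 and 2 when a library was left out.

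Transcripts of larval muscle were lower at day 9 in 14 of 16 markers, 2 of which were also lower at day 5, and between 12 and 14 when a library was left out. The 2 at day 5 were 0 without control replicate 2 or wts day 5 replicate 2 or 3, 1 without wts day 5 replicate 1 and 4 without control replicate 3, and 9 were lower at an unadjusted p under 0.05. Mlc1, a myosin light chain gene, had 0.159, 0.104 and 0.0481 CPM in wts day 9 libraries, 4.06, 7.65 and 3.37 CPM in wts day 5 libraries and 12.7, 74.3 and 11.4 CPM in control libraries, with control replicate 2 the highest of the control libraries and day 9 libraries near 0 (-8.24 ± 1.57, adjusted p = 0.00138). Mhc, the muscle myosin heavy chain gene, had 4.04, 0.728 and 0.674 CPM at day 9, 24.1, 44.0 and 15.1 CPM at day 5 and 69.2, 78.8 and 41.1 CPM in the control (-5.13 ± 1.14 and, between ages, -3.94 ± 1.11, a call lost without any 1 of the 9 libraries). The other 2, Tm1, which also encodes cytoskeletal tropomyosins, and sls, were not called. The sum of all 17 listed markers was between 1051 and 1086 CPM at day 9, between 1105 and 1300 CPM in wts discs at day 5 and between 1269 and 2206 CPM in the control. All 9 tested salivary gland markers were lower at day 9, 8 of them at day 5 too, with the uneven control levels given above. At day 9 only 2 of the 9 were called when the fit held just the 9 libraries of the 3 groups or the 6 compared, without the other groups' share in the estimate of the spread. Sgs3, a glue protein gene, had 0.478, 0.052 and 0 CPM at day 9, 0, 0.142 and 0.259 CPM at day 5 and 0.978, 97.5 and 2564 CPM in the control.

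Precursors of the flight muscles, which lie under the notum epithelium, showed a different course. Of 13 markers 9 were lower at day 5, and 3 lower and 1 higher at day 9, with 4 higher and 1 lower between ages. The 9 were 5 without control replicate 1 or 3 or wts day 5 replicate 2, and 4 without wts day 5 replicate 3. Without wts day 9 replicate 3, wts day 5 replicate 2 and wts day 5 replicate 3 the 4 were 1, 2 and 0. hbs and kirre, cell adhesion genes of myoblast fusion, were lower at both ages (-1.17 and -0.83 at day 9, -1.50 and -0.86 at day 5). Mef2, a muscle determination factor gene, was higher at day 9 (0.31 ± 0.06, adjusted p = 0.00227), and between ages by 0.32, lost without wts day 5 replicate 3. twi, the factor that marks these precursors, was not called on either day.

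By size, the 10 largest rises over the control with at least 5 CPM in a group were ppk13, CG33509, Ilp8, Cpr100A, CG8539, CG14957, topi, CG43394, CR45923 (lncRNA:dntRL) and Osi15, of which Cpr100A alone was not already called at day 5. ppk13 (chromosome 2L, 21086790 to 21088751), a member of the pickpocket family of sodium channels, had 31.1, 39.9 and 33.9 CPM in wts day 9 libraries, 55.6, 56.7 and 52.95 CPM in wts day 5 libraries and 0.0932, 0.0888 and 0.053 CPM in control libraries. The control values rest on 1 or 2 reads a library, and the groups lay far apart (8.67 ± 0.26, adjusted p = 5.01e-12, and 9.33 ± 0.25, adjusted p = 1.6e-12). It was lower at day 9 than at day 5 (-0.66 ± 0.14, adjusted p = 0.0152), a call lost without wts day 9 replicate 1 or 3 or wts day 5 replicate 2 or 3. CG43394, a gene without a name, reached a higher level, 489.5, 608 and 554 CPM in wts day 9 libraries, 385, 339 and 369 CPM in wts day 5 libraries and 26.5, 28.8 and 26.1 CPM in control libraries. CG43394 differed from the control by a log2 value of 4.34 ± 0.20 at day 9 and 3.75 ± 0.20 at day 5. topi, a transcription factor gene best known from testis, was uneven, at 26.6, 3.38 and 6.11 CPM at day 9, 0.573, 10.6 and 5.08 CPM at day 5 and 0.512, 0.444 and 0.583 CPM in the control. For topi the call at day 5 was lost without control replicate 1 or wts day 5 replicate 2.

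The 10 largest falls were Sgs3, Sgs7, Sgs8, Sgs1, Eig71Ee, Lcp3, Lcp4, Mlc1, Mlp60A and CG17669 (Dnaaf3). The 4 Sgs genes and Eig71Ee are salivary gland markers, Mlc1 and Mlp60A are muscle genes and Lcp3 and Lcp4 are larval cuticle genes. CG17669 had 0 counts in all 3 day 9 libraries, which allows up to 0.159, 0.156 and 0.144 CPM, and 0.0521, 0 and 0 CPM in wts day 5 libraries against 11.4, 16.1 and 7.68 CPM in the control libraries.

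Between the ages of wts discs, the falls of a pair of Vajk genes held without each library. Vajk3, listed as CG16884, averaged 5.29 ± 3.04 CPM at day 9, 96.7 ± 49.4 CPM at day 5 and 145 ± 32.5 CPM in the control (SD, n = 3 each). Vajk2, listed as CG16885, had 8.5, 5.05 and 4.96 CPM in wts day 9 libraries, 50.6, 125 and 65.2 CPM in wts day 5 libraries and 113, 141 and 118 CPM in control libraries. Their day 9 libraries were all below the lowest of the others (-4.19 ± 0.57 and -3.70 ± 0.51 against day 5, adjusted p = 0.00116 and 0.00127), and neither was called at day 5. CG42575 (NaPi-III) had 49.2, 46.6 and 43.2 CPM at day 9, 114, 134 and 136 CPM at day 5 and 104, 117 and 107 CPM in the control, again low at day 9 only (-1.47 ± 0.16, adjusted p = 0.000299). Obp99a, an odorant-binding protein gene, was higher at day 5 alone, with 21.0, 10.3 and 16.4 CPM at day 9, 52.99, 50.7 and 46.5 CPM at day 5 and 14.0, 9.37 and 15.4 CPM in the control. Its log2 difference from the control was 0.30 at day 9 and 1.96 at day 5, and -1.66 between ages. ppk29 had the same course (-0.14, 1.03 and -1.17). Genes that were called at day 5 and then called the opposite way between ages numbered 43 for higher then lower and 107 for lower then higher. In 78 of those 107 (72.9%) control replicate 2 was the lowest control library, where it was so for 32.9% of all genes tested.

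The double mutant discs, whose labels name both cic and wts, were also collected on days 5 and 9 and share no library with the wts discs. Against day 5, 955 genes were called at day 9 in them (10.6%), 546 higher (6.06%) and 409 lower (4.54%). Of the 377 genes higher at day 9 in wts discs, 366 had the same sign in cic wts discs and 210 were called, with a median of 0.74 in wts and 0.51 in cic wts discs. Of the 243 lower genes, 234 had the same sign and 91 were called, with medians of -0.38 and -0.25. The share of all genes with the same sign in both genotypes was not counted, so these numbers describe the lists and test nothing. The 2 comparisons come from 1 fit and share its estimate of the spread, and a difference between the 2 genotypes was not tested here.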

How the data were processed

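RNA of hand-dissected wing discs was sequenced as messenger RNA libraries (TruSeq), per the labels' protocols, and the authors deposited 1 table of raw counts per gene for 18 libraries. The submitters' processing notes name Bowtie2, TopHat2, HTSeq and DESeq2 and the build dm6. Not given in the sources used here are the step and version of each tool and the strand setting of the counting. These counts were analysed with edgeR 4.0.16 and limma 3.58.1 under R 4.3.3. filterByExpr kept 9004 genes, TMM scaled the libraries, and the quasi-likelihood F test was run in 1 fit over all 18 libraries with 1 coefficient for each of 6 groups of 3. Benjamini-Hochberg adjustment was over all 9004 genes, and a gene was called at an adjusted p under 0.05. CPM values use the same scaling, and standard errors were computed from the fold change and the F statistic. Steps were tested on simulated data.

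Genes called at day 9 were split by the day 5 call and by the test between ages. Alternatives were other scalings (RLE, total counts), no filter on low counts, fits of 9 or 6 libraries, the roX level as a covariate, the replicate number as a block, at least a 2-fold change, DESeq2 1.42.0, and leaving out each of 9 libraries. A total of 34 gene lists and 11 marker lists was used. The genes to name were wts, the Yki/Sd targets, the 10 largest rises and falls in 2 comparisons with a mean of at least 5 CPM in a group, up to 5 genes each way with opposite calls, and up to 6 members a list; further genes were named after their values were seen. Members and lists were chosen with earlier results of these data known, and sav, wts, Rbf and Rae1 were taken out of the Yki/Sd list after values were seen. Of 896 list entries 4 were not in the table. Symbols were matched to the Release 6 gene table, 12766 as given, 4387 by synonym and 220 not. The common biological coefficient of variation was 0.185.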

Additional observations from a re-analysis of the deposited data

Results flagged for a closer look

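In 9 genes wts discs were called in opposite directions from the control on the 2 days, and the difference between day 9 and day 5 was itself called, in each of the fits that lacked 1 library too. That call adds little, since genes picked for opposite calls against the same control must differ widely between the ages. Ef1alpha100E, which encodes a translation elongation factor, had 102, 114 and 108 CPM at day 9, 12.6, 6.17 and 6.63 CPM at day 5 and 46.2, 8.57 and 52.9 CPM in the control. Control replicate 2 was low in it, and day 9 exceeded day 5 by 3.66 on the log2 scale (adjusted p = 0.00195). Tsp, a thrombospondin gene of the extracellular matrix, had 208, 169.5 and 185 CPM at day 9, 103, 83.0 and 86.2 CPM at day 5 and 128, 102 and 136 CPM in the control and differed by 1.05 between ages (adjusted p = 0.000313). CG3168 had 52.2, 50.6 and 48.8 CPM at day 9, 22.5, 17.9 and 19.0 CPM at day 5 and 27.2, 23.4 and 24.7 CPM in the control, the groups not overlapping, and differed by 1.35 (adjusted p = 4.03e-06). CG10663 differed by 2.02, CG31547 (NKCC) by 1.76, CG32055 by 3.41, grass, a serine protease gene of the Toll pathway, by 1.36 and nord by 0.88. CG31262 was the 1 gene in which day 9 was the lower age, with 1.43, 1.4 and 2.12 CPM at day 9, 6.2, 11.8 and 7.0 CPM at day 5 and 2.65, 4.22 and 3.6 CPM in the control (-2.32 between ages). The call against the control was lost without at least 1 library for CG10663, grass, nord and Ef1alpha100E at day 9. At day 5 it was lost without at least 1 library for CG10663, CG3168, CG32055, Ef1alpha100E, grass and Tsp, so that only CG31262 and CG31547 kept both calls in every fit that lacked a library. Without a control at day 9, the age and the genotype of the day 9 discs cannot be told apart in these genes, and the part of the control libraries was not tested.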

How the results depend on the processing

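The counts were 2569 genes in wts day 9 against control discs, 1635 in wts day 5 against control discs, 620 between the 2 ages, 1063 already called at day 5 and 292 called later. When 1 of 9 libraries was left out they ran from 1701 to 2536, from 813 to 1608, from 118 to 640, from 631 to 989 and from 74 to 283. Between ages, 1031 genes were called with only the 2 groups compared in the fit, 949 when the roX level was a covariate, and 1075 by DESeq2, which called 479 genes later; the cause was not tested. With a change of at least 2 times also asked for, the 5 counts were 695, 558, 190, 314 and 60, as fewer genes can pass. Under every other alternative listed in the processing the 5 counts stayed within 1.5 times, between 2167 and 2811 for day 9 against control. Of 209 named genes called at day 9, 57 lost the call without at least 1 library, most without wts day 9 replicate 2 (43) and control replicate 1 (39), 30 lost it in another alternative, most with the roX covariate (21), and 0 changed direction. The deviations of same-numbered libraries from their group means correlated between -0.139 and 0.215, which cannot exclude that replicate numbers pair some samples. With the replicate number as a block, the 5 counts were 2589, 1653, 631, 1071 and 293. The depth and 3 libraries a group limit what can be called among genes of few counts, and 9004 of 17373 genes passed the filter.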

Other observations

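Lists not described above gave these values at day 9, where 14.8% of all genes were higher and 13.7% lower. Of 20 regeneration and tumour transcription factors, 7 were higher and 4 lower, the 7 being 4 without wts day 9 replicate 2 or control replicate 3, and the lower 4 being between 0 and 2 without control replicate 1 or 3, any 1 wts day 9 library or wts day 5 replicate 3. Of 5 tested Hox genes 1 was higher and 2 lower, or 1 lower without control replicate 1 or wts day 9 replicate 2 or 3. Of 12 retinal and antennal determination genes 2 were higher and 2 lower, and so were 2 and 2 of the 10 eye-antennal disc markers, whose higher genes were 1 without any 1 wts day 9 library, control replicate 1 or 2 or wts day 5 replicate 3. Of the 14 wing disc markers 2 were higher and 2 lower, with 1 higher without wts day 9 replicate 2 or 3 or control replicate 1 or 2. Of 13 neuron and glia markers 1 was higher and 3 lower, the 3 being 1 without any 1 wts day 9 library or control replicate 2. Of 8 fat body markers 0 were called by edgeR at day 9 (1 lower at an unadjusted p under 0.05 and 1 by DESeq2), and all 11 listed summed to 87.2, 358 and 100.1 CPM at day 9, 71.8, 70.9 and 94.1 CPM in wts discs at day 5 and 73.1, 197 and 248 CPM in the control. Of the 3 genes of the male dosage compensation list 0 were called by edgeR, by DESeq2 or at an unadjusted p under 0.05.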
